A study of Mus musculus with 54 samples.

Results

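The lactation effect, lactating females against virgin females, was compared between the ileum and the jejunum of the mouse small intestine. The ileum is the last section of the small intestine and the jejunum the section before it. The comparison used 23 of the 54 libraries of the series: 6 from the ileum and 5 from the jejunum of females on day 7 of lactation, and 6 from the ileum and 6 from the jejunum of virgin females, which the labels call matched to them in age. No strain, genotype or age in days or weeks is given in the labels. They state that all the mice ate RM3 chow while breeding and RM1 chow in maintenance and in the experiment. Each library is polyadenylated RNA of a piece of gut, so it holds the epithelium together with whatever muscle, nerve, vessel and immune cells were taken with it. The series sets 3 gut sections side by side in lactating, virgin and male mice. The question here was which changes were shared by both sections and which differed, and the difference was taken as the log2 lactation effect in the ileum less that in the jejunum.

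In lactation a mother eats far more, and the small intestine lengthens and its villi grow. The jejunum takes up most sugar, peptide and fat through transporters and enzymes of the enterocyte brush border. The ileum receives what is left over and carries its own programme, in which the bile acid transporter Slc10a2, the bile acid binding protein Fabp6 and the hormone Fgf15 return bile acids to the liver and limit their synthesis. Prolactin, the main hormone of milk production, acts in many tissues through its receptor Prlr and the transcription factor STAT5.

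The 23 libraries held 19550437 to 25503240 reads in genes, with 17106 to 17894 genes detected in each. The section markers fitted the labels: Fabp6 lay between 1960 and 6410 CPM (reads scaled to the library's gene reads) in the ileum and at or under 13.5 CPM in the jejunum. The lactase gene Lct lay between 0.113 and 4.98 CPM in the ileum, where lactating library 2 was the highest, and between 3090 and 4880 CPM in the jejunum. The third library labelled lactating jejunum was left out by the definition of the comparison. It held 17 CPM of the duodenal factor Pdx1 and 51.8 CPM of the duodenal protease Tmprss15, against 0.0504 to 0.269 CPM and 0 to 0.0946 CPM in the other 5 lactating jejunum libraries. Virgin ileum library 2 also stood apart, with a mean log2 level of the ribosomal protein genes of 0.75 relative to the virgin ileum mean, against -0.22 to -0.069 in the other 5 virgin ileum libraries. Whether each library is a different mouse is not stated in the labels, so the tests speak of variation among samples, part of which may be technical.

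Both sections changed in lactation, mostly in genes that passed in one section alone, and few genes could be shown to change by a different amount. Of 15285 genes tested with edgeR's quasi-likelihood test, 8 had a lactation effect that differed between ileum and jejunum at an adjusted p under 0.05 (0.0523%). The effect was higher in the ileum for Zbed6, Ttll2, Tmem117, Slc25a15 and Ugcg (5 genes, 0.0327%) and lower for Slc9a3, Itgam and Mfsd4a (3 genes, 0.0196%). Within the ileum 137 genes passed (0.896%), 114 higher and 23 lower in lactating females. Within the jejunum 112 passed (0.733%), 54 higher and 58 lower. Of these, 10 passed in both sections in the same direction (0.0654% of the genes tested), which is 7.30% of the ileum list and 8.93% of the jejunum list, and 0 passed in opposite directions. With library totals alone as the scale, the split of higher and lower was 5 and 6 for the difference, 72 and 43 in the ileum and 8 and 6 for genes passing in both sections.

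The count of 8 depended on the libraries and on the tool. Leaving out 1 library at a time gave between 1 and 22 genes, and DESeq2 called 99 where limma-voom called 1. At an unadjusted p under 0.05, 1536 genes differed (10%). Without regard to significance, the effects had the same sign in both sections for 54.9% of all genes tested. Same signs were found for 107 of the 137 ileum genes (78.1%) and for 77 of the 112 jejunum genes (68.8%). The lactating and virgin libraries did not overlap for 336 genes in the ileum (2.20%) and 304 in the jejunum (1.99%), and 12 genes were separated in both sections (0.0785%). Across the 15285 genes the effects had a Pearson correlation of 0.17 and a Spearman correlation of 0.12, a description over genes that come from the same libraries within a section and are not independent.

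**Figure D1:**
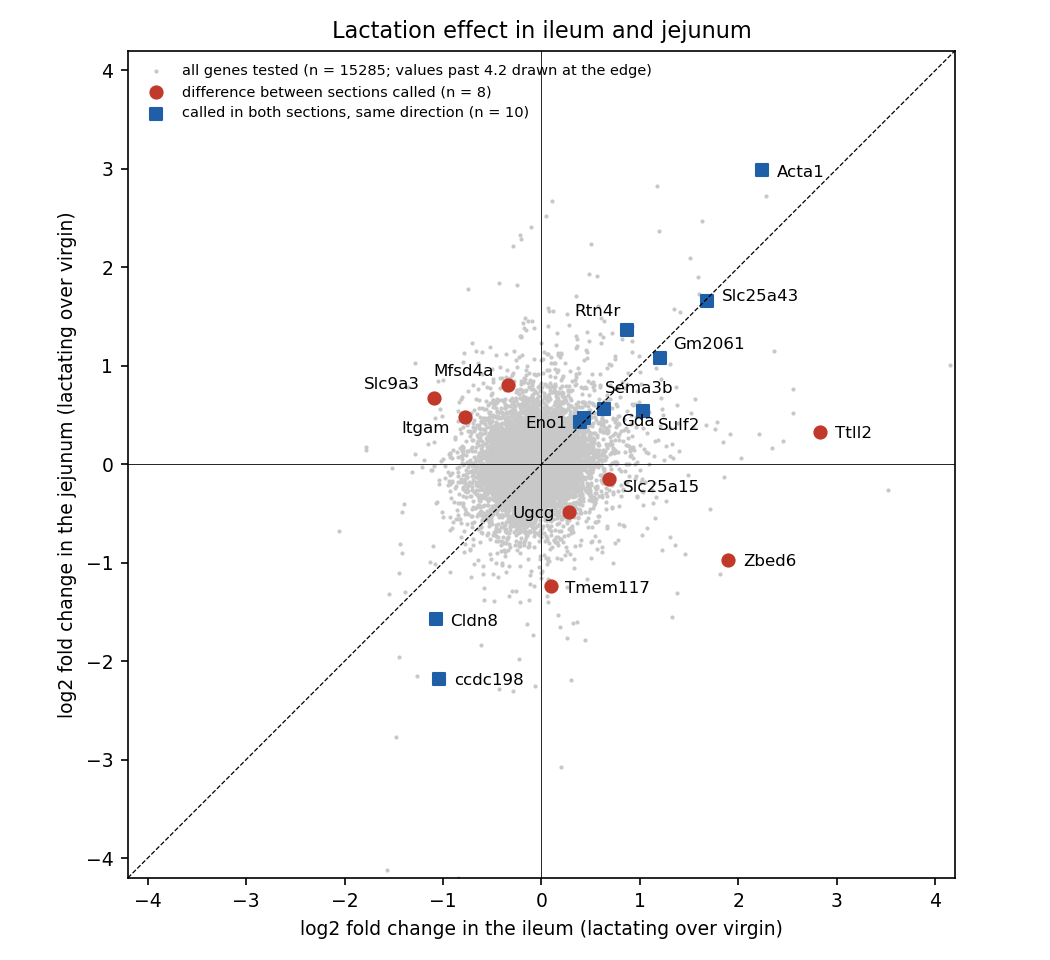
Log2 fold change of lactating over virgin females in the ileum (x axis) and in the jejunum (y axis), 1 point for each of 15285 genes. Red circles are the 8 genes whose effect differed between the sections, which lie away from the dashed line of equal effects, and blue squares are the 10 genes that passed in both, near that line or on the same side of both axes.

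Zbed6, a gene derived from a DNA transposon whose product represses the growth factor gene Igf2, had the largest difference, with effects of opposite sign in the sections. It had 5.08, 10.7 and 20.9 CPM (lowest, median and highest library, the order used for groups of 6) in lactating ileum, against 0.637, 3.09 and 5.20 CPM in virgin ileum. The 5 lactating jejunum libraries had 2.22, 2.29, 2.64, 2.97 and 4.08 CPM, against 4.16, 5.50 and 7.18 CPM (lowest, median and highest) in virgin jejunum. All but 1 lactating ileum library lay above every virgin ileum library, while every lactating jejunum library lay below every virgin one. The ileum effect was 1.90 ± 0.32 (log2 ± SE, adjusted p = 0.00549) and the jejunum effect -0.97 ± 0.35, which did not pass (adjusted p = 0.202). The difference was 2.87 ± 0.47, with a 95% interval of 1.90 to 3.84 (adjusted p = 0.0234, edgeR). It passed in 18 of 23 fits that each left out 1 library, and missed the threshold without virgin jejunum 5, lactating jejunum 6 or virgin ileum 1, 3 or 5 (adjusted p up to 0.0628). Zbed6 (chr1:133655879-133660885, GRCm38, minus strand) lies within Zc3h11a on the same strand, so reads of the host transcript cannot be fully told apart from its own. Zc3h11a itself had a difference of 0.23 (adjusted p = 0.46).

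Tmem117, which encodes a membrane protein, passed in the jejunum alone, and its difference passed under every alternative tried. Lactating ileum had 91.7, 117 and 122 CPM, against 80.7, 110 and 132 CPM in virgin ileum. Lactating jejunum had 19.8, 19.96, 21.8, 25.8 and 30.6 CPM, against 43.0, 57.7 and 68.1 CPM in virgin jejunum. The ileum groups overlapped widely and the jejunum groups were separate. In the ileum the effect was 0.09 ± 0.13 (adjusted p = 0.817), in the jejunum it was -1.24 ± 0.15 (adjusted p = 0.00014) and the difference 1.33 ± 0.20 (95% interval 0.93 to 1.74, adjusted p = 0.0094). It held in 23 of 23 fits that left out 1 library. Tmem117 (chr15:94629232-95096098, plus strand) overlaps Nell2 on the other strand, and the counts are strand-specific. The difference of Nell2 was -0.73 (adjusted p = 0.66).

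Ttll2, a tubulin tyrosine ligase-like gene, was raised in lactation where its level was low. It had 1.04, 1.25 and 3.04 CPM in lactating ileum, against 0.112, 0.173 and 0.455 CPM in virgin ileum. Lactating jejunum had 6.94, 8.39, 8.90, 10.2 and 10.9 CPM, against 4.32, 7.24 and 10.8 CPM in virgin jejunum. The ileum groups did not overlap and the jejunum groups did. The ileum effect was 2.83 ± 0.35 (adjusted p = 0.00024), the jejunum effect 0.33 ± 0.24 (adjusted p = 0.607) and the difference 2.5 ± 0.43 (95% interval 1.61 to 3.40, adjusted p = 0.0331). The difference passed in 13 of 23 fits that left out 1 library (adjusted p from 0.00688 to 0.0765), and missed without virgin ileum 1, 3 or 5, lactating ileum 2, virgin jejunum 1, 5 or 6, or lactating jejunum 2, 5 or 6.

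Slc25a15 and Ugcg completed the genes with a higher effect in the ileum. Slc25a15, the mitochondrial ornithine carrier, had 192, 225 and 264 CPM in lactating ileum, against 116, 138 and 177 CPM in virgin ileum. In the jejunum it had 265, 311, 318, 362 and 398 CPM in lactating females, against 336, 374 and 390 CPM in virgin females. Only the ileum groups were separate. It rose in the ileum by 0.68 ± 0.10 (adjusted p = 0.0028), with -0.15 ± 0.11 in the jejunum (adjusted p = 0.598) and a difference of 0.83 ± 0.15 (adjusted p = 0.0394). Ugcg, the ceramide glucosyltransferase that starts glycosphingolipid synthesis, fell in the jejunum. In the ileum it had 146, 157 and 171 CPM in lactating females, against 114, 130.5 and 147 CPM in virgin females. Its jejunum libraries had 170, 198, 209, 218 and 249 CPM in lactating females, against 235, 296 and 351 CPM in virgin females. The groups overlapped slightly in both sections. The ileum effect was 0.28 ± 0.10 (adjusted p = 0.199), the jejunum effect -0.49 ± 0.10 (adjusted p = 0.0298) and the difference 0.77 ± 0.14 (adjusted p = 0.0443). The difference of Slc25a15 passed in 8 of 23 fits that left out 1 library, those without virgin ileum 2, 4 or 6, lactating ileum 3 or 6, virgin jejunum 2 or 3, or lactating jejunum 4. That of Ugcg passed in 6, those without virgin ileum 2, 4 or 6, virgin jejunum 2 or 3, or lactating jejunum 1.

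Slc9a3, the sodium-proton exchanger NHE3 of the brush border, went the other way, and fell in the ileum. It had 8.68, 12.7 and 17.1 CPM in lactating ileum, against 17.98, 27.1 and 39.96 CPM in virgin ileum. Lactating jejunum had 236, 384, 442, 540 and 821 CPM, against 232, 288 and 408 CPM in virgin jejunum. The ileum groups were separate, and in the jejunum 3 of the 5 lactating libraries lay above every virgin one. The ileum effect was -1.09 ± 0.24 (adjusted p = 0.0256), the jejunum effect 0.68 ± 0.24 (adjusted p = 0.188) and the difference -1.76 ± 0.33 (95% interval -2.45 to -1.08, adjusted p = 0.046). The call held in 6 of 23 fits that left out 1 library, those without virgin ileum 2, 4 or 6, lactating ileum 1, or lactating jejunum 2 or 4.

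Itgam, the integrin chain CD11b of macrophages, neutrophils and dendritic cells, also fell in the ileum. It had 13.6, 16.2 and 23.5 CPM in lactating ileum, against 22.1, 27.9 and 41.9 CPM in virgin ileum, and the groups overlapped in their extremes. Lactating jejunum had 15.2, 16.04, 20.4, 21.2 and 22.6 CPM, against 11.03, 14.1 and 16.2 CPM in virgin jejunum. The ileum effect was -0.78 ± 0.16 (adjusted p = 0.0152), the jejunum effect 0.48 ± 0.17 (adjusted p = 0.183) and the difference -1.26 ± 0.23 (adjusted p = 0.0394). The sum of 4 macrophage markers, Itgam among them, was 57.5 to 91.6 CPM in lactating ileum against 77.6 to 116 CPM in virgin ileum. In the jejunum the sum was 52.9 to 80 CPM in lactating females against 34.9 to 72.4 CPM in virgin females. As Itgam is part of this sum, the sum is not separate evidence. In bulk tissue fewer cells of a type and less RNA per cell cannot be told apart. The difference of Itgam passed in 8 of 23 fits that left out 1 library, those without virgin ileum 2, 4 or 6, lactating ileum 1 or 6, virgin jejunum 3, or lactating jejunum 2 or 5.

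Mfsd4a, a transporter-like gene of the major facilitator family, rose in the jejunum. Lactating ileum had 25.2, 28.6 and 38.2 CPM, against 28.4, 39.5 and 45.2 CPM in virgin ileum. Lactating jejunum had 44.7, 47.1, 48.6, 50.02 and 75.3 CPM, against 23.2, 30.9 and 37.6 CPM in virgin jejunum. The ileum groups overlapped, and the jejunum groups did not. In the ileum the effect was -0.34 ± 0.15 (adjusted p = 0.354), in the jejunum it was 0.81 ± 0.16 (adjusted p = 0.0196) and the difference -1.15 ± 0.22 (adjusted p = 0.0479). Without lactating jejunum 1, its highest library, the jejunum call was lost (adjusted p = 0.0648), and the difference passed in 7 of 23 fits that left out 1 library, those without virgin ileum 2, 4 or 6, lactating ileum 1 or 3, virgin jejunum 3, or lactating jejunum 4.

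Below the threshold, the genes with the next smallest p on the lower side were Tnfsf13 and Fmo1, both of which rose in the jejunum. Tnfsf13, the B cell survival factor APRIL, had an ileum effect of -0.25 ± 0.14 (adjusted p = 0.493) and a jejunum effect of 0.74 ± 0.15 (adjusted p = 0.0234). Its difference of -0.98 ± 0.21 did not pass (adjusted p = 0.0897). Fmo1, a flavin-containing monooxygenase of drug metabolism, had 13.8, 15.5, 17.4, 20.4 and 24.8 CPM in lactating jejunum, against 4.42, 6.33 and 7.86 CPM in virgin jejunum. The groups were separate there, with an effect of 1.55 ± 0.23 (adjusted p = 0.00159), and the ileum effect was 0.07 ± 0.22 (adjusted p = 0.926). Its difference of -1.48 ± 0.32 likewise did not pass (adjusted p = 0.0994).

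**Figure D2:**
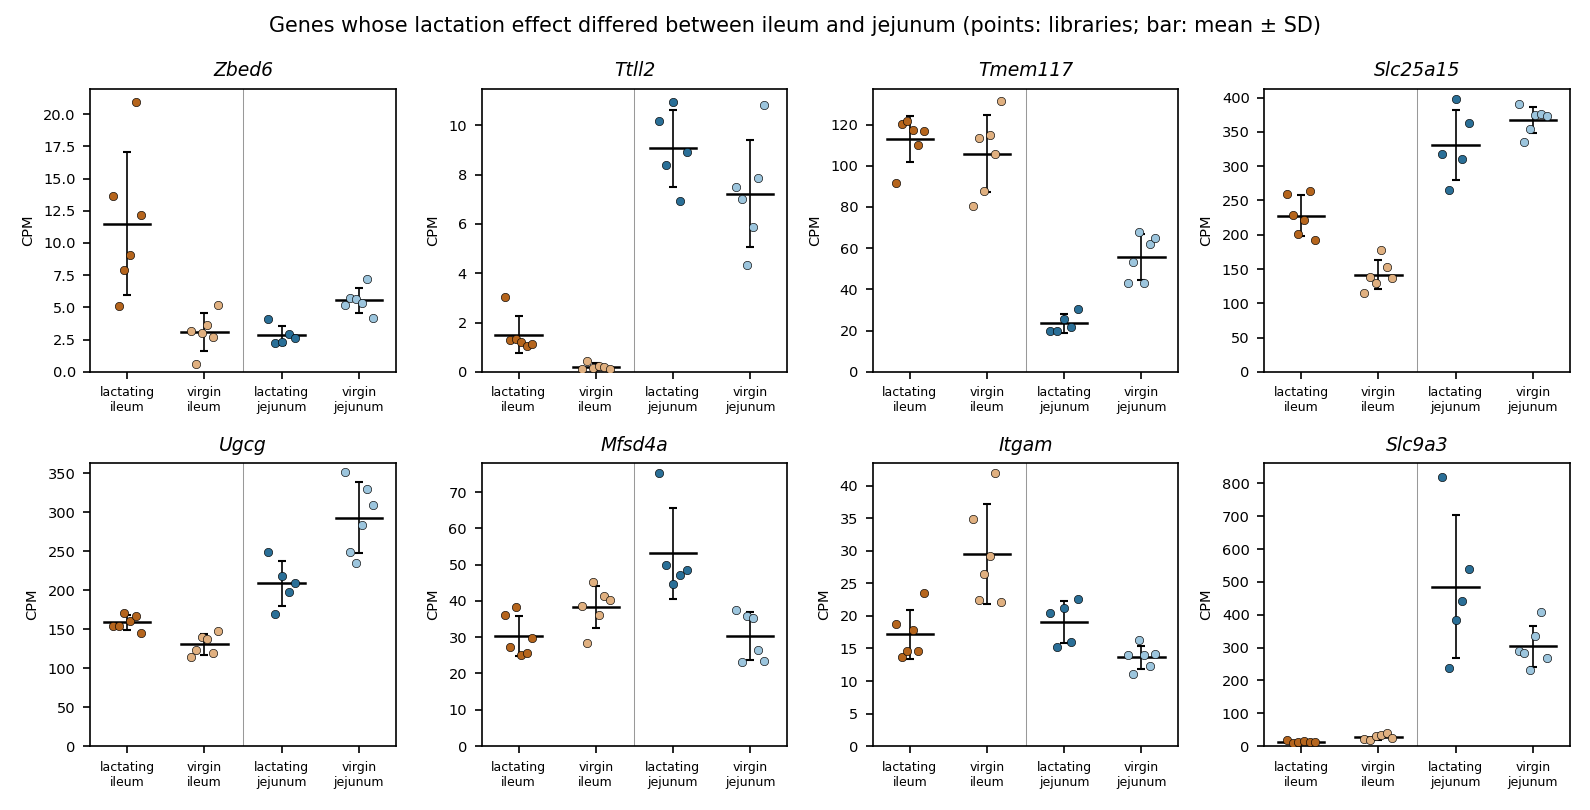
CPM of the 8 genes whose lactation effect differed between ileum and jejunum, 1 point for each library, with lactating left of virgin in each section and bars at mean ± SD. Zbed6, Ttll2 and Slc25a15 are raised in lactating ileum, Slc9a3 and Itgam are lowered there, and Tmem117, Ugcg and Mfsd4a change mainly in the jejunum.

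The promoters of Zbed6 and Tmem117 are shown because these genes had the difference with the largest size and the difference that held in every fit. Each window runs from 250 bases before the RefSeq start to 50 after it on GRCm38.p6, read 5′ to 3′ on the gene's strand. Capitals mark the letters TTCNNNGAA, the palindrome known to be bound by STAT5, which reads the same on both strands and was searched with no other motif.
Zbed6 (chr1:133660836-133661135, minus strand): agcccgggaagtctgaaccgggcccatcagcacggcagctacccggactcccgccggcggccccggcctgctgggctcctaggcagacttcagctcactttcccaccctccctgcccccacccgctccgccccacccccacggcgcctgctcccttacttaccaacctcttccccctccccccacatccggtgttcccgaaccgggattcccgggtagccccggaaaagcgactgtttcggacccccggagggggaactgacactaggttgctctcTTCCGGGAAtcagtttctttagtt
Tmem117 (chr15:94628935-94629234, plus strand): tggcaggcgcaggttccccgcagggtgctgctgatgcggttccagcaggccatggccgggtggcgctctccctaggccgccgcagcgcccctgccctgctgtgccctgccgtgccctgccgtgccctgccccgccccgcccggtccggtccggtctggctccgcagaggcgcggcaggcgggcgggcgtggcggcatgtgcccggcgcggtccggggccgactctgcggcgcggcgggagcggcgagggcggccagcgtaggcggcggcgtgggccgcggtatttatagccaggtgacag
The motif starts at base 277 of the Zbed6 window and its letters are not in the Tmem117 window. It was in 1 of 9 promoters of the 8 difference genes (11.1%), in 0 of 10 promoters of the 7 genes passing in both sections that matched the RefSeq table, and in 4.91% of 285 promoters of the genes with a mean effect over both sections. Of all promoters 8.30% held it, and of the promoters of the genes tested 6.95%. These shares are descriptions of letters and say nothing of binding. Zbed6 lies within Zc3h11a on the same strand, and whether its transcript starts in the window shown was not tested.

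A number of genes of nutrient uptake rose in the ileum, and fewer of them passed in the jejunum. Slc5a4a, of the sodium-glucose cotransporter family, had 23.01, 26.3 and 63.8 CPM in lactating ileum, against 1.48, 5.20 and 10.3 CPM in virgin ileum, with an effect of 2.55 ± 0.36 (adjusted p = 0.00125). In lactating jejunum it had 180, 288, 296, 348 and 374 CPM, against 126, 180 and 222 CPM in virgin jejunum, and that effect, 0.76 ± 0.33, did not pass (adjusted p = 0.316). The groups were separate in the ileum and overlapped in the jejunum. Slc2a2, the glucose exit transporter GLUT2, had 0.873, 1.31 and 6.00 CPM in lactating ileum, against 0.0399, 0.369 and 0.865 CPM in virgin ileum, and 332 to 383 CPM in lactating jejunum against 218 to 410 CPM in virgin jejunum. It rose in the ileum by 2.46 ± 0.51 (adjusted p = 0.0202), where its groups were separate, and the call was lost without lactating ileum 1 or virgin ileum 1, 3 or 5. The related Slc5a4b rose by 1.71 ± 0.39 (adjusted p = 0.0346), and its ileum call was lost in 7 fits that left out 1 ileum library, with an effect of 1.25 without lactating ileum 2 (adjusted p up to 0.0972 over all such fits). The main glucose transporter Slc5a1 passed in neither section, at 0.37 ± 0.15 in the ileum and 0.22 ± 0.16 in the jejunum.

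For these sugar genes the difference between sections did not pass, so a larger effect in the ileum was not shown gene by gene. The difference was 1.79 ± 0.48 for Slc5a4a (adjusted p = 0.187), 2.22 ± 0.62 for Slc2a2 (adjusted p = 0.192) and 2.16 ± 0.53 for Slc5a4b (adjusted p = 0.151). Of the 22 tested genes of sugar digestion and transport, 3 rose in the ileum, where 0.746% of all genes tested were called higher, and 0 passed in the jejunum or for the difference by edgeR. At an unadjusted p under 0.05 the difference was positive for 7 and negative for 0, where 10% of all genes tested passed in either direction. Of the 22 sugar genes DESeq2 called 1 for the difference and limma-voom 0. Signs of the difference were positive for 19 of 22, where 47.7% of all genes tested had a positive difference. The list's median was 0.35 in the ileum, 0.07 in the jejunum and 0.32 for the difference, against medians of -0.01, 0.01 and -0.01 over all genes tested.

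Amino acid and fat genes followed the same layout. Of 27 tested genes of peptide and amino acid uptake, 5 rose in the ileum and 0 fell, against 0 and 1 in the jejunum. Of all genes tested 0.746% were called higher in the ileum and 0.379% lower in the jejunum. Among them Slc6a18, a neutral amino acid transporter, had 11.6, 15.6 and 21.6 CPM in lactating ileum, against 2.56, 4.83 and 8.45 CPM in virgin ileum (effect 1.52 ± 0.29, adjusted p = 0.0123). The main neutral amino acid transporter Slc6a19 rose by 0.79 ± 0.17 (adjusted p = 0.022) and Slc7a15 by 1.14 ± 0.25 (adjusted p = 0.0271). The groups of all 3 were separate in the ileum, though Slc6a19 and Slc7a15 lost the call without virgin ileum 3 or 5 or lactating ileum 4, and Slc7a15 without lactating ileum 2. Slc6a20a, the proline transporter, was the one that fell in the jejunum, by 1.17 on the log2 scale (adjusted p = 0.0338). The difference was positive for 23 of the 27, with a median of 0.45, where 47.7% of all genes tested had a positive difference. At an unadjusted p under 0.05, 17 were positive against 1 negative, where 10% of all genes tested passed in either direction. None of the 27 passed the adjusted threshold by edgeR or limma-voom, and 1 passed by DESeq2.

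Of 34 tested genes of fat uptake and export, 4 rose in the ileum and 1 in the jejunum, where 0.746% and 0.353% of all genes tested were called higher. Fabp2, the intestinal fatty acid binding protein, had 3428, 3873 and 4264 CPM in lactating ileum, against 1030, 1955 and 2869 CPM in virgin ileum, with no overlap (effect 0.97 ± 0.21, adjusted p = 0.0236), a call lost without lactating ileum 4 or virgin ileum 1, 3 or 5. In the jejunum the same gene had 5896 to 12000 CPM in lactating females against 8143 to 13370 CPM in virgin females, and -0.33 ± 0.22 did not pass (adjusted p = 0.549). Slc27a4, a fatty acid transport protein, rose in the ileum by 0.66 ± 0.13 (adjusted p = 0.0152) and Acsl5, an acyl-CoA synthetase, by 0.64 ± 0.11 (adjusted p = 0.00732). The single rise in the jejunum was Scarb1, the lipoprotein receptor SR-BI, at 28.2, 58.4, 112, 138 and 421 CPM in lactating females, against 10.3, 29.0 and 75.1 CPM in virgin females. Its effect of 2.21 ± 0.47 (adjusted p = 0.0317) was 1.36 without lactating jejunum 5 (adjusted p = 0.0889), and the call was also lost without lactating jejunum 1 or virgin jejunum 1, 2, 4 or 6. The difference was positive for 31 of the 34 genes, with a median of 0.35, where 47.7% of all genes tested had a positive difference. Of the 34, 0 passed by edgeR, 2 by DESeq2 and 0 by limma-voom. At an unadjusted p under 0.05, 12 were positive and 1 negative, where 10% of all genes tested passed in either direction.

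Of 25 tested genes of iron and trace metals 3 rose in the ileum and 1 in the jejunum, and of 24 of vitamin uptake 1 rose in the ileum and 3 in the jejunum, against the same 0.746% and 0.353% of all genes tested. Scarb1, counted above for fat uptake, is 1 of those 3. Of 19 tested genes of calcium, phosphate and vitamin D, 2 rose in the ileum, S100g and Slc30a10, and 0 in the jejunum. These counts stand against the same shares of all genes tested. S100g, the calcium-binding protein calbindin-D9k, had 4.05, 7.00 and 36.2 CPM in lactating ileum, against 1.77, 3.23 and 5.42 CPM in virgin ileum, and rose by 2.21 ± 0.48 (adjusted p = 0.0256). Lactating ileum libraries 2 and 4 were far above the others, and the call was lost without library 2 (effect 1.77, adjusted p = 0.0658), as it was without library 4 or without virgin ileum 1, 3 or 5. Flvcr2, a choline transporter, rose in the ileum by 2.36 ± 0.38 (adjusted p = 0.00378), Slc30a10, a manganese exporter, by 1.38 ± 0.21 (adjusted p = 0.00275), the zinc transporter Slc39a4 by 1.02 ± 0.19 (adjusted p = 0.0113) and the copper transporter Slc31a1 by 0.91 ± 0.16 (adjusted p = 0.00735). Their jejunum effects, 1.15, 0.60, 0.81 and 0.50 in that order, had the same sign and did not pass, and all 4 passed for the mean of both sections.

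In the jejunum the vitamin carriers Slc19a3 and Slc19a1 and the iron exporter Slc40a1 rose. Slc19a3, a thiamine transporter, had 3.64, 3.89, 4.22, 6.65 and 8.65 CPM in lactating jejunum, against 0.825, 1.35 and 2.73 CPM in virgin jejunum, with no overlap (effect 1.84 ± 0.28, adjusted p = 0.00263). It was at most 0.317 CPM in lactating and 0.397 CPM in virgin ileum, where the effect was -0.43 ± 0.44 (adjusted p = 0.734), and its difference of -2.27 ± 0.53 did not pass (adjusted p = 0.137). Slc19a1, the reduced folate carrier, had 13.7, 14.4, 15.4, 15.8 and 21.6 CPM in lactating jejunum, against 6.28, 8.59 and 10.8 CPM in virgin jejunum, again with no overlap (effect 0.89 ± 0.14, adjusted p = 0.00343). Its ileum effect was 0.09 ± 0.13 (adjusted p = 0.838) and its difference -0.81 ± 0.19 (adjusted p = 0.151). Slc40a1 rose by 0.96 ± 0.22 (adjusted p = 0.0383), and without lactating jejunum 1 its effect was 0.65 (adjusted p = 0.117). The call held in 13 of 23 fits that left out 1 library. Slc40a1 is also one of the duodenum markers, and the excluded library labelled lactating jejunum had 82.9 CPM of it. The lactating jejunum libraries used had 12.1 to 33.9 CPM, against 6.01 to 13.6 CPM in virgin jejunum.

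Over whole lists, uptake genes had positive median differences, and genes of stroma, vessels, nerves, B cells and macrophages negative ones. Positive medians of the difference were found for bile acids (0.55), vitamin uptake (0.27), villus tip genes (0.32) and cholesterol and fatty acid synthesis (0.23), besides the 3 lists above. Lists of other kinds were as high, among them the gasdermin genes (0.65, 6 tested), the circadian clock (0.32) and tuft cells (0.23). Other immune lists did not lie on the negative side, at 0.07 for T cells and intraepithelial lymphocytes, 0.04 for MHC class II presentation and 0.21 for the interferon response. Negative medians were found for B cell and plasma cell genes (-0.70), endothelium (-0.60), enteric neurons and glia (-0.52), fibroblast and matrix (-0.49), macrophage and myeloid genes (-0.47) and smooth and skeletal muscle (-0.27). Lists of the epithelium were negative too, among them Reg lectins and epithelial antimicrobial genes (-0.29), crypt stem cell and Wnt targets (-0.15) and enteroendocrine genes (-0.14). So was the list of unfolded protein and amino acid stress (-0.14). The median over all genes tested was -0.01, and 52.3% of genes had a negative difference. Of 18 endothelial genes 17 had a negative difference, and likewise 25 of 27 fibroblast and matrix genes, 27 of 30 neuron and glia genes, 23 of 26 macrophage and myeloid genes and 18 of 20 B cell and plasma cell genes. Genes of a list come from the same libraries, so these counts are not independent.

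**Figure D3:**
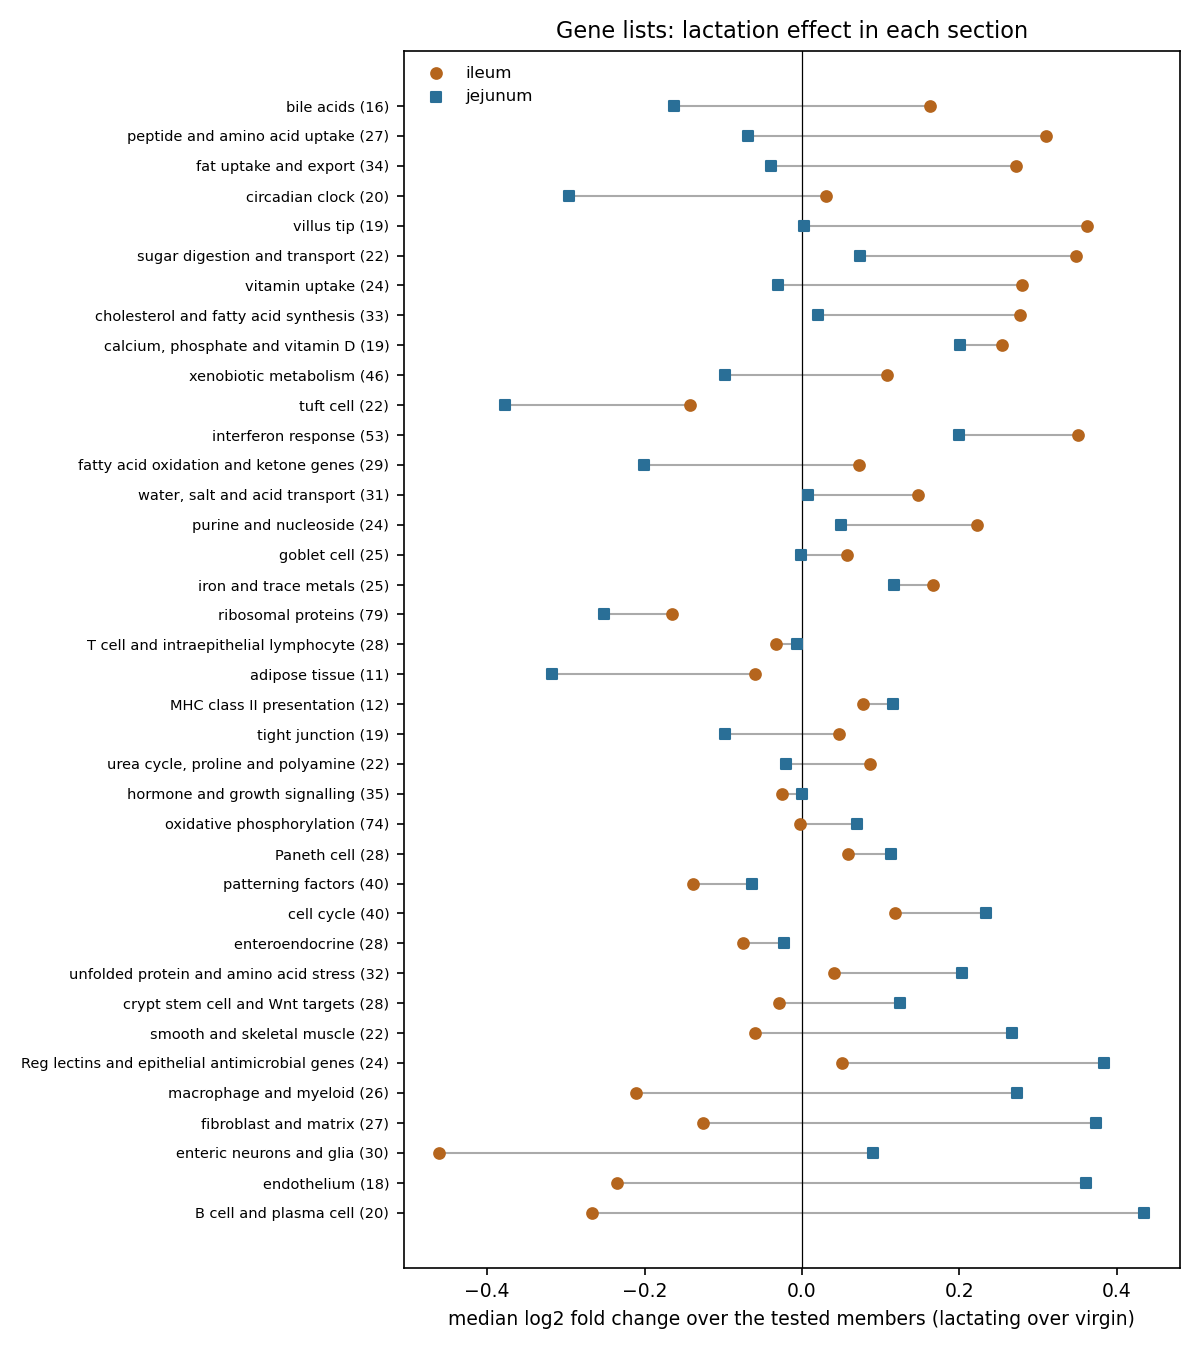
Median log2 fold change of lactating over virgin females in the ileum (circles) and in the jejunum (squares) for 38 gene lists, with the number of tested members in brackets and the list with the highest median difference at the top. Uptake and villus lists have the ileum at the right, and stromal, vascular, nerve and B cell lists have the jejunum at the right.

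Single genes of endothelium and of fibroblasts did not pass. For endothelium 0 of 18 genes were called for the difference by edgeR and 0 by limma-voom, 1 was called lower by DESeq2, and 11 were lower and 0 higher at an unadjusted p under 0.05. Fibroblast and matrix genes had 0 calls by all 3 tools, with 10 lower and 0 higher at an unadjusted p under 0.05. At that unadjusted threshold 10% of all genes tested passed in either direction. Pecam1, the endothelial adhesion molecule, had 19.4, 23.5 and 27.6 CPM in lactating ileum, against 24.8, 30.6 and 33.2 CPM in virgin ileum. In lactating jejunum it had 19.96, 20.7, 23.9, 24.2 and 24.6 CPM, against 9.98, 20.2 and 26.01 CPM in virgin jejunum. The groups overlapped in both sections, and the difference of -0.57 ± 0.22 did not pass (adjusted p = 0.374). Col3a1, a fibroblast collagen, had a difference of -0.68 ± 0.33 (adjusted p = 0.50), and Jchain, which joins secreted IgA, -0.71 ± 0.34 (adjusted p = 0.489).

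By library, lactating and virgin ranges overlapped for the 8 lists plotted. Only part of the lists were scored by library. Among those, the ranges were apart for villus tip genes in the ileum, at 0.312 to 0.644 in lactating and -0.387 to 0.266 in virgin females. They were also apart for ribosomal protein genes in the jejunum, at -0.362 to -0.152 in lactating and -0.126 to 0.165 in virgin females. The mean log2 level of the endothelial list relative to its section's virgin mean was -0.439, -0.182 and 0.009 in lactating ileum, against -0.14, -0.001 and 0.179 in virgin ileum. It was 0.178, 0.418 and 0.582 in lactating jejunum, against -0.664, 0.048 and 0.427 in virgin jejunum. Lactating and virgin groups overlapped in both sections, and the virgin jejunum libraries spread most. The sugar list had 0.318, 0.579 and 1.135 in lactating ileum, against -0.622, 0.116 and 0.442 in virgin ileum, and -0.081, -0.02 and 0.17 in lactating jejunum, against -0.175, -0.069 and 0.282 in virgin jejunum. Its ileum groups overlapped too. The summed level of the 8 enterocyte markers was 13200 to 15500 CPM in lactating ileum against 5840 to 16200 CPM in virgin ileum, and 49800 to 63400 CPM in lactating jejunum against 56600 to 83000 CPM in virgin jejunum. Smooth muscle markers summed to 4490 to 6650 CPM in lactating ileum against 4000 to 6380 CPM in virgin ileum, and to 2760 to 4490 CPM in lactating jejunum against 1040 to 5690 CPM in virgin jejunum. Enteric neuron markers were apart in the ileum, at 33.6 to 47.8 CPM in lactating against 50.3 to 76.6 CPM in virgin females. In the jejunum they overlapped, at 20.6 to 49.8 CPM against 18.3 to 60.2 CPM. Glia markers overlapped in the ileum, at 8.37 to 12.1 CPM against 9.05 to 16.6 CPM. Jejunum markers summed to 2360 to 3340 CPM in lactating ileum against 1440 to 2880 CPM in virgin ileum. Ileum markers there summed to 5060 to 8550 CPM against 3910 to 9270 CPM. In the jejunum, duodenum markers summed to 21.2 to 38.4 CPM in lactating females against 11.6 to 21.4 CPM in virgin females. The iron exporter Slc40a1 is among these duodenum markers. Ileum markers in the jejunum summed to 446 to 694 CPM in lactating females against 445 to 565 CPM in virgin females. Gata4, at 111 to 138 CPM in lactating jejunum, had 0.738 to 1.46 CPM in lactating ileum against 0.299 to 0.956 CPM in virgin ileum. Its ileum effect was 0.86 ± 0.20 (adjusted p = 0.0346, edgeR). The part of tissue make-up, or of the position of a piece along the gut, in the gene results above was not tested.

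**Figure D4:**
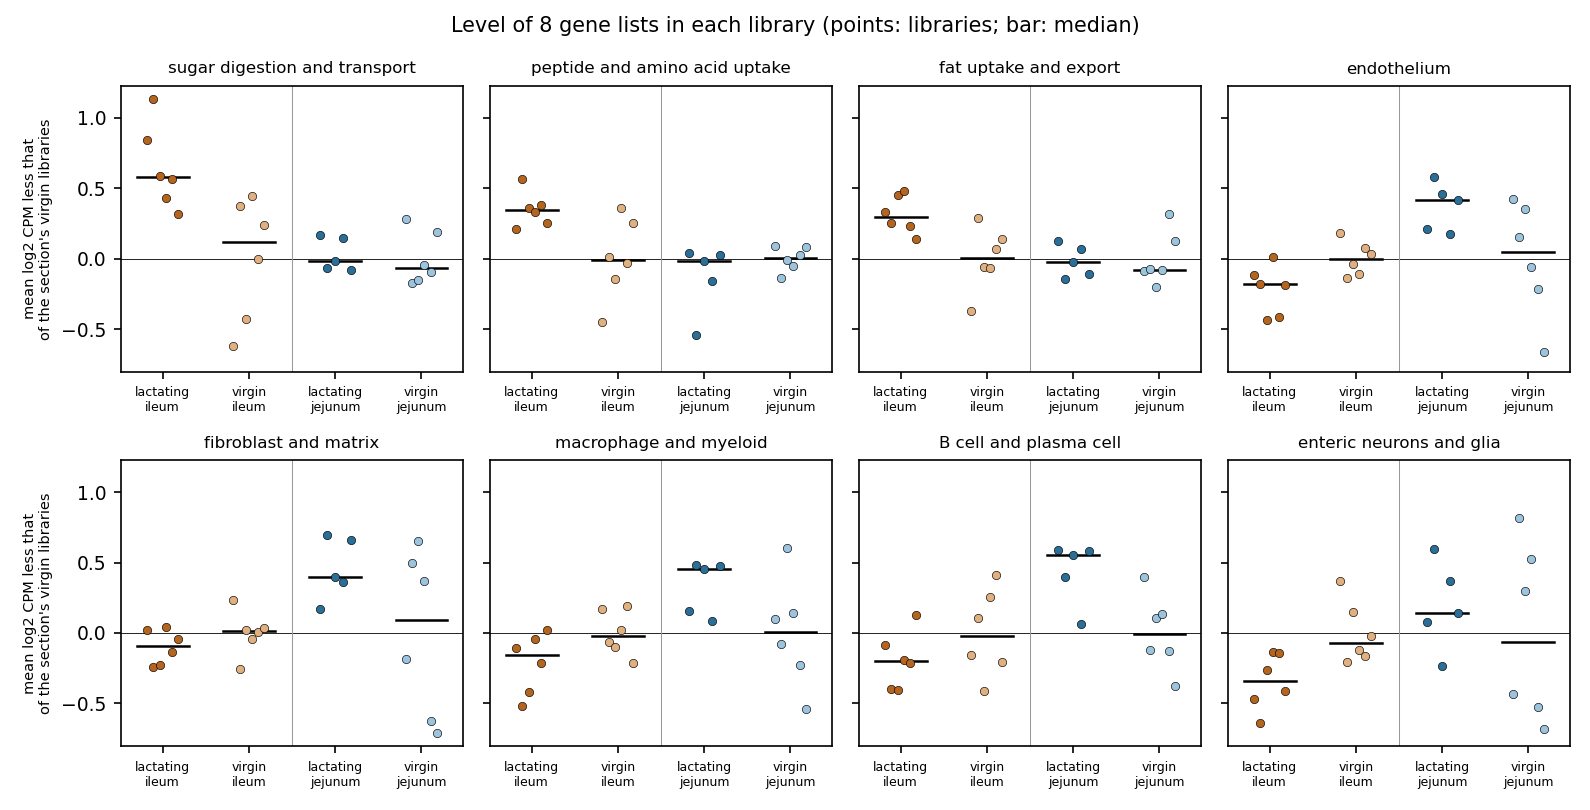
Mean log2 CPM of 8 gene lists in each library, less the mean of the same section's virgin libraries, with lactating left of virgin and bars at the median. The uptake lists have higher medians in lactating than in virgin ileum, with overlapping libraries. The endothelial, fibroblast, macrophage and nerve lists spread more among virgin jejunum than among virgin ileum libraries, and the B cell list does not.

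What both sections shared was led by Sulf2 and Rtn4r. Sulf2, an extracellular sulfatase that trims heparan sulfate and so alters growth factor and Wnt signals, had 58.5, 66.2 and 80.8 CPM in lactating ileum, against 29.0, 32.6 and 37.6 CPM in virgin ileum. In lactating jejunum it had 189, 230, 242, 262 and 297 CPM, against 142, 171 and 188 CPM in virgin jejunum. Lactating and virgin libraries were separate in both sections. Sulf2 (chr2:166073089-166155663, minus strand) rose by 1.04 ± 0.10 in the ileum (adjusted p = 7.95e-06) and by 0.54 ± 0.10 in the jejunum (adjusted p = 0.0191). Its mean effect over both sections was 0.79 ± 0.07 (adjusted p = 2.31e-06), and its difference of 0.50 ± 0.15 did not pass (adjusted p = 0.225). The jejunum call was lost without lactating jejunum 1 or 6.

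Rtn4r, the Nogo receptor that limits axon growth, had 5.02, 5.63 and 6.59 CPM in lactating ileum, against 2.00, 3.14 and 4.19 CPM in virgin ileum. In lactating jejunum it had 9.45, 11.4, 14.3, 15.7 and 15.8 CPM, against 3.83, 5.13 and 6.63 CPM in virgin jejunum. Both sections were again separate. The effects were 0.87 ± 0.16 in the ileum (adjusted p = 0.0109), 1.36 ± 0.16 in the jejunum (adjusted p = 0.00014) and 1.11 ± 0.11 for the mean (adjusted p = 8.61e-06), and the calls in both sections held in all 23 fits that left out 1 library. Its promoter is shown as that of a shared gene, with 0 copies of TTCNNNGAA in the window.
Rtn4r (chr16:18127392-18127691, plus strand): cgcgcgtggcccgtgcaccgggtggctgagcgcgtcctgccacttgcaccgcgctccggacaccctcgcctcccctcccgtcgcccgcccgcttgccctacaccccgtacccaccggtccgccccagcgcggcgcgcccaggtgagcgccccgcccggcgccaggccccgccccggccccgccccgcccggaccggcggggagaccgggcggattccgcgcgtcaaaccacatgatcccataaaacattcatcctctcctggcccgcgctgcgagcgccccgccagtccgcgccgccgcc

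Sema3b, Gda, Eno1 and Acta1 also rose in both sections. Sema3b, a secreted semaphorin, had 84.6, 97.7 and 104 CPM in lactating ileum, against 63.8, 69.1 and 84.3 CPM in virgin ileum, and rose by 0.43 ± 0.09 there and by 0.47 ± 0.09 in the jejunum (adjusted p = 0.0152 and 0.0188). Its groups were separate in both sections, by a small margin in the ileum. Gda, guanine deaminase of purine breakdown, rose by 0.64 ± 0.13 in the ileum and by 0.56 ± 0.13 in the jejunum (adjusted p = 0.0154 and 0.0456), and the jejunum call held in 6 of 23 fits that left out 1 library. Eno1, the glycolytic enolase, rose by 0.39 ± 0.09 and 0.43 ± 0.09 in ileum and jejunum (adjusted p = 0.0388 and 0.0338), calls that held in 13 and 17 of 23 fits that left out 1 library. Processed copies of enolase genes can share reads, so its level is uncertain.

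Acta1, the skeletal muscle actin, had the largest shared rise. It had 78.4, 210 and 354 CPM in lactating ileum, against 21.6, 33.3 and 72.8 CPM in virgin ileum. Lactating jejunum had 10.4, 15.4, 17.7, 53.4 and 71.8 CPM, against 1.18, 4.50 and 7.43 CPM in virgin jejunum. Both sections were separate, with effects of 2.24 ± 0.49 in the ileum (adjusted p = 0.0256) and 2.98 ± 0.55 in the jejunum (adjusted p = 0.0146). The ileum call held in 17 and the jejunum call in 22 of 23 fits that left out 1 library. The sum of 4 skeletal muscle markers, Acta1 among them, was 95.2 to 380 CPM in lactating ileum against 41.6 to 92.4 CPM in virgin ileum, and 22.9 to 95 CPM in lactating jejunum against 11.8 to 32.9 CPM in virgin jejunum. As Acta1 is part of this sum, the sum is not separate evidence. In lactating ileum the median was 210 CPM for Acta1 and 231 CPM for the sum. Whether muscle taken with the gut had a part in the rise of Acta1 was not tested.

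Cldn8 and ccdc198 fell in both sections. Cldn8, a claudin that tightens epithelial junctions, had 3.34, 6.47 and 8.01 CPM in lactating ileum, against 9.19, 12.8 and 15.4 CPM in virgin ileum. Its level was low in the jejunum, at 0.107, 0.268, 0.302, 0.327 and 0.488 CPM in lactating females, against 0.692, 0.925 and 1.16 CPM in virgin females. No lactating library reached a virgin one in either section. The effects were -1.08 ± 0.19 (adjusted p = 0.00732) and -1.58 ± 0.32 (adjusted p = 0.0234) in ileum and jejunum. For ccdc198 they were -1.04 ± 0.23 (adjusted p = 0.0316) and -2.18 ± 0.32 (adjusted p = 0.00159), with separate groups in both. The jejunum call of Cldn8 was lost without lactating jejunum 1 or 6, and the ileum call of ccdc198 held in 16 of 23 fits that left out 1 library. The remaining genes that passed in both sections were Gm2061, a long noncoding RNA that overlaps Slc30a10 on the other strand, and the mitochondrial carrier gene Slc25a43, both higher and named after their values were seen.

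**Figure D5:**
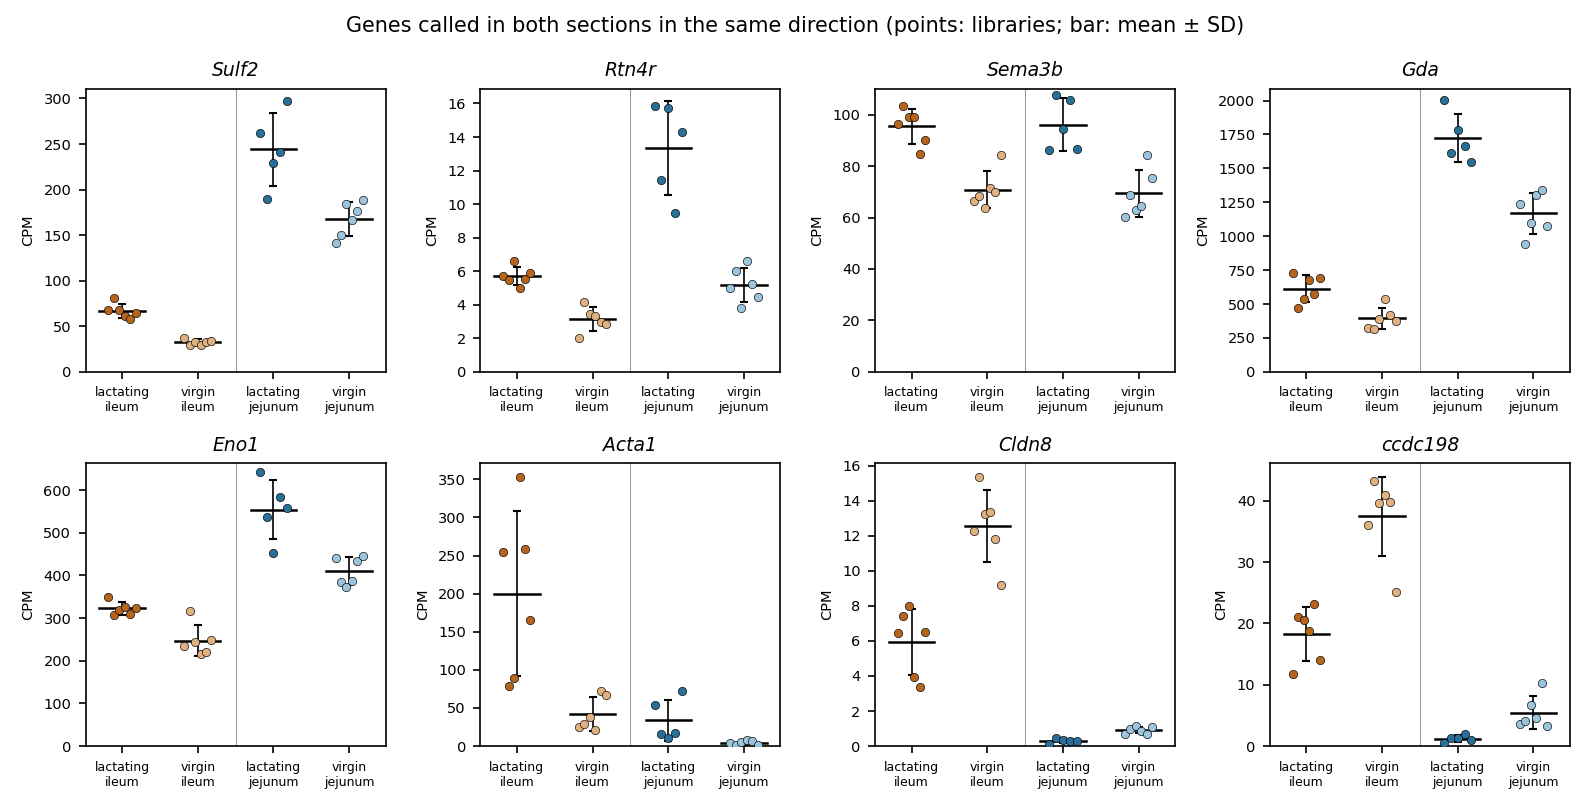
CPM of 8 genes that passed in both sections in the same direction, 1 point for each library, with lactating left of virgin in each section and bars at mean ± SD. Sulf2, Rtn4r, Sema3b, Acta1, Cldn8 and ccdc198 have lactating and virgin libraries apart in both sections.

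The mean of both section effects called 255 genes (1.67%), 156 higher and 99 lower, and 125 of them passed in neither section alone. With library totals alone as the scale the split turned to 136 higher and 243 lower. A call on the mean does not show a change in both sections: Ttll2 and Tmem117, whose effects differed, were among the 255, and so was Fmo1, with 0.07 in the ileum. Of 6 tested gasdermin genes, which encode pore-forming proteins, 3 fell for the mean effect and 3 did not pass. Those that fell were gasdermin C genes, which are induced in the gut epithelium by type 2 immune signals: the mean effect was -2.12 ± 0.35 for Gsdmc3, -1.71 ± 0.29 for Gsdmc2 and -1.70 ± 0.27 for Gsdmc4 (adjusted p = 0.00245, 0.00322 and 0.00179). Gsdmc2 had 15.9, 35.9 and 41.9 CPM in lactating ileum, against 57.4, 71.1 and 116 CPM in virgin ileum. It had 6.82, 10.3, 11.96, 12.3 and 13.4 CPM in lactating jejunum, against 25.8, 26.5 and 161 CPM in virgin jejunum. For each of the 3 genes lactating and virgin libraries were separate in both sections, yet the ileum effects missed the threshold (adjusted p = 0.138 for Gsdmc2, 0.131 for Gsdmc3 and 0.057 for Gsdmc4). Virgin jejunum 5 was far above the other virgin jejunum libraries for all 3 genes, and without it the jejunum effects were -1.27, -1.73 and -1.25 for Gsdmc2, Gsdmc3 and Gsdmc4, against -2.15, -2.77 and -1.96 with it. The genes of this family are alike in sequence, so their counts are uncertain. Srd5a2, a steroid 5-alpha-reductase, had a mean effect of -0.98 ± 0.16 (adjusted p = 0.00206).

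Of 53 interferon response genes tested, 50 had a positive effect in the ileum and 43 in the jejunum. The median effect over all genes tested was -0.012 in the ileum and 0.005 in the jejunum. In the ileum 7 of the 53 rose, 0 passed in the jejunum by edgeR, DESeq2 or limma-voom, and 8 rose for the mean effect, with 0 falls in each. Of all genes tested 0.746% were called higher in the ileum and 1.02% for the mean. In the jejunum 4 of the 53 were higher and 0 lower at an unadjusted p under 0.05, where 13.4% of all genes tested passed in either direction. The list's mean log2 level relative to its section's virgin mean was -0.207 to 0.684 in lactating ileum against -0.41 to 0.366 in virgin ileum, and -0.254 to 0.596 in lactating jejunum against -0.465 to 0.56 in virgin jejunum. The ranges overlapped in both sections, and lactating ileum 2 was at -0.207 where the other 5 were at 0.515 to 0.684. Signs were the same in both sections for 46 of 53, and the median was 0.35 in the ileum, 0.20 in the jejunum and 0.30 for the mean. Oas3, a sensor of double-stranded RNA, had 34.5, 59.2 and 74.5 CPM in lactating ileum, against 15.3, 27.8 and 30.5 CPM in virgin ileum, with no overlap (effect 1.2 ± 0.21, adjusted p = 0.00668). In the jejunum its effect was 0.39 ± 0.21 (adjusted p = 0.44) and the mean effect was 0.80 ± 0.15 (adjusted p = 0.00623). The antiviral enzyme Rsad2 and the apolipoprotein L gene Apol9a likewise passed in the ileum (1.03 ± 0.21 and 1.67 ± 0.30, adjusted p = 0.0188 and 0.00735) and for the mean, and not in the jejunum. None of the 53 differed between sections by edgeR, DESeq2 or limma-voom. At an unadjusted p under 0.05 there were 8 positive and 0 negative differences, where 10% of all genes tested passed in either direction.

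No cell cycle or ribosomal protein gene passed by edgeR in either section or for the mean. Of 40 cell cycle genes, 36 had the same sign, 39 were higher in the ileum and 37 in the jejunum, with medians of 0.12 and 0.23. Over all genes tested the medians were -0.012 and 0.005, and 54.9% had the same sign. For the mean effect 0 of the 40 passed by edgeR, DESeq2 or limma-voom. At an unadjusted p under 0.05, 5 of the 40 were higher and 0 lower, a share under the 16% of all genes tested. The proliferation marker Mki67 had effects of 0.09 ± 0.14 in the ileum and 0.08 ± 0.15 in the jejunum (adjusted p = 0.847 and 0.87). All 79 tested ribosomal protein genes had the same sign in both sections, with medians of -0.17 in the ileum and -0.25 in the jejunum, and 0 passed for the mean by edgeR, DESeq2 or limma-voom, while 49 were lower and 0 higher at an unadjusted p under 0.05. The ileum median rested on virgin ileum 2, without which it was 0.03.

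Prlr, Lgr5 and Olfm4 passed in neither section. The prolactin receptor gene Prlr had effects of 0.31 ± 0.12 in the ileum and -0.07 ± 0.13 in the jejunum (adjusted p = 0.265 and 0.869). The crypt stem cell gene Lgr5 had 0.09 ± 0.18 and 0.42 ± 0.20 in ileum and jejunum (adjusted p = 0.874 and 0.366), and Olfm4 had 0.28 ± 0.20 and 0.46 ± 0.21 (adjusted p = 0.596 and 0.347). Trpv6, the apical calcium channel, had 0 to 6 reads per library and was not tested. Fgf15, the ileal bile acid hormone, had 0.300, 14.2 and 23.4 CPM in lactating ileum, against 3.19, 27.1 and 106 CPM in virgin ileum. It had 0, 0.133, 0.161, 0.224 and 0.251 CPM in lactating jejunum, against 0.348, 2.21 and 5.48 CPM in virgin jejunum. The groups overlapped in the ileum and were separate in the jejunum. The effects were -1.57 ± 0.62 in the ileum and -4.12 ± 1.23 in the jejunum, where few reads were found, and neither passed (adjusted p = 0.275 and 0.125). The mean effect was -2.84 ± 0.68 (adjusted p = 0.0324), and the difference of 2.56 ± 1.48 did not pass (adjusted p = 0.595).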

How the data were processed

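Polyadenylated RNA of gut pieces was sequenced with a strand-specific kit, per the labels' protocols. The authors deposited raw read counts per gene symbol for each library, 25229 symbols and 4 entries for reads of no gene, with no scaling or filter in the files. Tools named in the submitters' processing notes are STAR 2.7.7a, FastQC 0.11.5 and DESeq2 1.34.0, with GRCm38 as the build, and the annotation is not given in the sources used here. The count column of the sense strand held 98.04% to 98.65% of stranded gene reads in the 23 libraries used, and 21.54% to 25.66% of reads were assigned to no gene and left out of library sizes and tests.

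The 23 libraries were fitted together in 4 groups with edgeR 4.0.16 (quasi-likelihood F test, R 4.3.3). Low genes were dropped with filterByExpr (at least 10 reads in enough libraries, 15 in all), TMM factors set the scale, and genes were called at a Benjamini-Hochberg adjusted p under 0.05 over all genes tested. The contrasts were lactating less virgin in each section, their difference and their mean. Levels are CPM scaled by TMM, effects are log2 ± SE. CPM of Pdx1, Tmprss15, Fabp6 and Lct and the marker sums are scaled by TMM over 24 libraries, the excluded one among them, with no count filter. So is the CPM of Slc40a1 in the excluded library. Coordinates are from GENCODE M21 on GRCm38, where 24366 symbols matched, and promoters are from RefSeq on GRCm38.p6.

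The libraries, 40 gene lists and named genes were chosen with earlier results of these data known. The rule for named genes took 15 genes of uptake, growth and hormones, up to 12 genes each way for the difference and for calls in both sections (mean log2 CPM of at least 1, no Gm or Rik name), filled to 5 by the smallest p, and up to 4 called members per list, or the 2 with the highest level. Other settings tried were DESeq2 1.42.0 as the tool, scaling by its median-of-ratios factors or by library totals only, limma-voom (limma 3.58.1) for the difference and the section by itself for its own effect, no count filter, CPM above 1 in at least 5 libraries, a replicate block, 34 female libraries of 3 sections, the excluded jejunum library put back, and leaving out each library.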

Additional observations from a re-analysis of the deposited data

Results flagged for a closer look

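Among 132 groups of libraries looked at for the named genes, 12 held a library far from the rest of its group (chance flags about 1 in 20 groups). In lactating ileum, library 2 had 63.76 CPM of Slc5a4a, against 23.01 to 37.94 CPM in the other 5, and 25.02 CPM of Slc5a4b, against 4.346 to 9.998 CPM. Library 1 had 3.044 CPM of Ttll2, against 1.042 to 1.349 CPM, and library 3 had 109.5 CPM of Mki67, against 126.4 to 135.6 CPM, and 4.801 CPM of Srd5a2, against 3.044 to 3.51 CPM. In lactating jejunum, library 1 had 75.33 CPM of Mfsd4a, against 44.7 to 50.02 CPM, and library 4 had 1.869 CPM of Srd5a2, against 0.6975 to 0.8948 CPM.

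In virgin ileum, library 2 had 316.4 CPM of Eno1, against 215.9 to 248.7 CPM in the other 5. In virgin jejunum, library 3 had 4.512 CPM of Srd5a2, against 1.925 to 2.68 CPM. Library 5 of that group had 161.3 CPM of Gsdmc2, 71.34 CPM of Gsdmc3 and 193.7 CPM of Gsdmc4, against 25.78 to 27.51, 7.208 to 12.21 and 31.72 to 46.24 CPM in the other 5.

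By the test of the difference itself, the log2 lactation effect in the ileum less that in the jejunum was 2.87 for Zbed6, 2.5 for Ttll2, 1.33 for Tmem117, 0.833 for Slc25a15, 0.768 for Ugcg, -1.15 for Mfsd4a, -1.26 for Itgam and -1.76 for Slc9a3.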

How the results depend on the processing

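The count of genes whose effect differed, 8, was 99 under DESeq2 (74 higher and 25 lower, all 8 among them), 4 in a fit of 34 female libraries of 3 sections, 3 with the excluded jejunum library put back and 1 under limma-voom. Leaving out 1 library gave 1 to 22: 1 without virgin ileum 1, 3 or 5, virgin jejunum 5 or lactating jejunum 6, and 22, 21 and 18 without virgin ileum 4, 2 and 6. The ileum count, 137, was 398 under DESeq2, 79 in the fit of 34 libraries, 24 with the excluded library put back, and 50 to 285 leaving out 1 library (50, 52 and 53 without virgin ileum 3, 5 and 1, 285 without virgin ileum 2). The jejunum count, 112, was 322, 73 and, from the section alone, 18, and 19 to 250 leaving out 1 library (19 without lactating jejunum 6, 250 without virgin ileum 2). The count for the mean, 255, was 678, 146 and, with the library put back, 102, and 139 to 454 leaving out 1 library. The 10 genes passing in both sections were 30, 2, 1 with the library put back and 1 from the sections alone, and 3 to 16 leaving out 1 library. The cause of these shifts was not tested.

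With library totals alone the median of all genes moved to -0.12 for the difference and -0.10 for the ileum, and the split of higher and lower calls became 72 and 43 in the ileum, 136 and 243 for the mean, 5 and 6 for the difference and 8 and 6 for genes passing in both sections. From the section alone the ileum split was 90 and 71. Of 102 calls of named genes, 53 held in every fit that left out 1 library and 35 under every other alternative, and 11 of 89 differences that were not called passed under at least 1 other alternative. The median difference of the tuft cell list, 0.23, was -0.055 without virgin jejunum 5 and -0.078 without lactating ileum 4, and ranged from -0.078 to 0.343 leaving out 1 library. The ileum median of the ribosomal list was 0.031 without virgin ileum 2, and ranged from -0.219 to 0.031.

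Same-numbered libraries did not deviate together (correlations of -0.305 to 0.45, and 2 of 22 libraries matched best with their own number), so the numbers do not show a pairing. With the replicate block the counts were 5 for the difference (2 higher and 3 lower), 95 in the ileum, 48 in the jejunum, 165 for the mean and 4 in both sections. For the difference the block joined same-numbered ileum and jejunum libraries of the same status. For the other counts it joined same-numbered lactating and virgin libraries of the same section, so it is not a block by mouse. Depth limited the ileum values of Slc2a2, Slc19a3 and Ttll2, and the lactating jejunum values of Fgf15 and Cldn8, all of which rest on few reads.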
